A study of Drosophila melanogaster with 2 samples.

Results

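Of 4574 tHMG1-GFP peaks past the authors' test of agreement between replicates, 602 lay on the X chromosome, and these 602 are described here. The study was a chromatin immunoprecipitation with sequencing (ChIP-seq) of tHMG1, the product of CG7045, in *Drosophila melanogaster*. The chromatin came from whole adult males, of unknown age, of a transgenic line that carries CG7045 with GFP fused to its C terminus, and it was sonicated and precipitated with an antibody against GFP. There was 1 group, with 2 biological replicates numbered 1 and 3, so no treatment, genotype or sex was compared. A member is every row on X of the list that passed the irreproducible discovery rate (IDR) procedure, which compares peak ranks between replicates. The rows of that list are the strongest by signal of a longer list made from both replicates pooled. Members were thus cut on this signal, with the weakest X member at 90.37 and the strongest X row left out at 90.21. The summit of a member is the base the authors' peak caller marked as its highest point. The peaks on the 4 large autosome arms, 2L, 2R, 3L and 3R, which number 3960, are the comparison, and 12 peaks on chromosome 4 were left out of it. Chromatin of a whole fly mixes all tissues, so the cells in which a site was bound cannot be told apart.

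HMG-box proteins are small chromatin proteins that bind the minor groove of DNA and bend it, in many cases with little preference for sequence. tHMG1 takes its name from the testis, where genes of this kind are known for their use during the remodelling of chromatin in maturing sperm. The X is the sex chromosome of which a male fly carries a single copy beside paired autosomes. In somatic cells of males it is bound by the dosage compensation complex, a set of MSL proteins with the roX RNAs, which acetylates histone H4 and raises transcription of X genes. Because the X is present at a lower dose than the autosomes, chromosome dose and occupancy cannot be told apart in any difference of peak number or signal between X and autosomes.

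The sequences that follow carry the main classes of X site. They are the plus strand of build dm6 (release 6 of the genome), 5′ to 3′, around the summit, without annotated untranslated exon sequence. The first set holds the strongest X peaks, at the promoters of Ugalt (chrX:2703853-2703927) and Gapdh2 (chrX:15867927-15868027) and in introns of CG32772 (chrX:4910325-4910425) and Tlk (chrX:3742168-3742268), and none of the motifs searched lies in them.
Ugalt: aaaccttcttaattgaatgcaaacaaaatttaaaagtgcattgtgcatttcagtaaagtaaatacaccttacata
Gapdh2: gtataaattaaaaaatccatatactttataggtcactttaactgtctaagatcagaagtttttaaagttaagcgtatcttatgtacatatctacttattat
CG32772: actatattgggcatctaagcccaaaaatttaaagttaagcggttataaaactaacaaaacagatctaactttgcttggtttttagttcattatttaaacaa
Tlk: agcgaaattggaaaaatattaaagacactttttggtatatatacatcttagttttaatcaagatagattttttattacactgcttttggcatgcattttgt
The next set shows motifs searched at X summits, in capitals, namely TATCGATA in the promoter of RpS14a (chrX:7933633-7933733) and GAGAGAGA, the core of the element at which the dosage compensation complex enters the X, in an intron of Mnt (chrX:3672676-3672776). The promoter of roX1 (chrX:3862443-3862543), which makes an RNA of that complex, is given with them and holds neither.
RpS14a: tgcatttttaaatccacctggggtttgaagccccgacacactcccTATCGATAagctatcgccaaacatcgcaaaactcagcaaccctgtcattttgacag
Mnt: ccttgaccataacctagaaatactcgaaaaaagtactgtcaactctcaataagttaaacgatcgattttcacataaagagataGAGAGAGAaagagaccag
roX1: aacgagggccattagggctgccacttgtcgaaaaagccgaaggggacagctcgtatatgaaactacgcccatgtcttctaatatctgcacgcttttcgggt
The last set shows in capitals the words CACTGTG and CCACTGT, read on either strand (as CACAGTG and ACAGTGG on the other), which were picked after 8-base words at X summits had been counted. They are shown in 200-base windows around intron summits of norpA (chrX:4324889-4325088), CHES-1-like (chrX:7706874-7707073) and NFAT (chrX:13640435-13640634).
norpA: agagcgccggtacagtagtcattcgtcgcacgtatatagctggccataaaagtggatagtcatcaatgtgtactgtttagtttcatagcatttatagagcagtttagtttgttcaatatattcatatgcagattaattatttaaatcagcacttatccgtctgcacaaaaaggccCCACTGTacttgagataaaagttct
CHES-1-like: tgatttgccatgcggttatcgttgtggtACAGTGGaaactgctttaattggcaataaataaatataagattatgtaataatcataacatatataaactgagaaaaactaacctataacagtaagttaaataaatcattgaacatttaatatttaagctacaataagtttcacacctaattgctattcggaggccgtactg
NFAT: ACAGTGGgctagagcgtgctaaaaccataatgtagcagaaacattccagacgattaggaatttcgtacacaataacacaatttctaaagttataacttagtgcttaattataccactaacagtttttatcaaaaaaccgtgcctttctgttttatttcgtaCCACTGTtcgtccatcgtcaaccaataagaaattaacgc

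Per Mb of chromosome, X peaks were fewer at promoters than those on the autosome arms, while in introns the densities were close in the IDR list. A promoter peak is here one with its summit within 500 bp of any annotated transcription start site (TSS), an intron peak lies in a gene but in no exon and no promoter, and an intergenic peak lies outside all of these. Of the 602 X peaks, 285 were promoter peaks (47.3%, 95% interval 43.3 to 51.4%), against 2355 of 3960 on the autosome arms (59.5%, 57.9 to 61.0%). Intron peaks made up 266 of the X peaks (44.2%, 40.2 to 48.3%), against 1226 on the autosome arms (31.0%). Intergenic peaks numbered 28 on X (4.65%), against 277 on the autosome arms (6.995%). The remaining X summits lay in 3′ untranslated exons (8), 5′ untranslated exons (7), non-coding exons (6) and coding exons (2). All intervals given for shares are exact Clopper-Pearson intervals and cover the counting of peaks or genes only, not the spread between replicates.

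Per length of chromosome, X held 25.6 peaks per Mb, against 36.3 per Mb on the autosome arms, where single arms ran from 34.6 to 38.1 per Mb. The ratio of X to autosome arms was 0.704. At promoters X had 12.1 peaks per Mb, against 21.6 per Mb on the autosome arms (20.4 to 22.8 on single arms), a ratio of 0.560. In introns the densities were 11.3 per Mb on X and 11.2 per Mb on the autosome arms (10.7 to 11.7 on single arms), a ratio of 1.00. Intergenic peaks were at 1.19 per Mb on X and 2.54 per Mb on the autosome arms, a ratio of 0.468. X thus lay below every autosome arm at promoters and between genes (1.62 to 3.06 per Mb on single arms), while its intron density lay within the range of the arms.

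**Figure D1:**
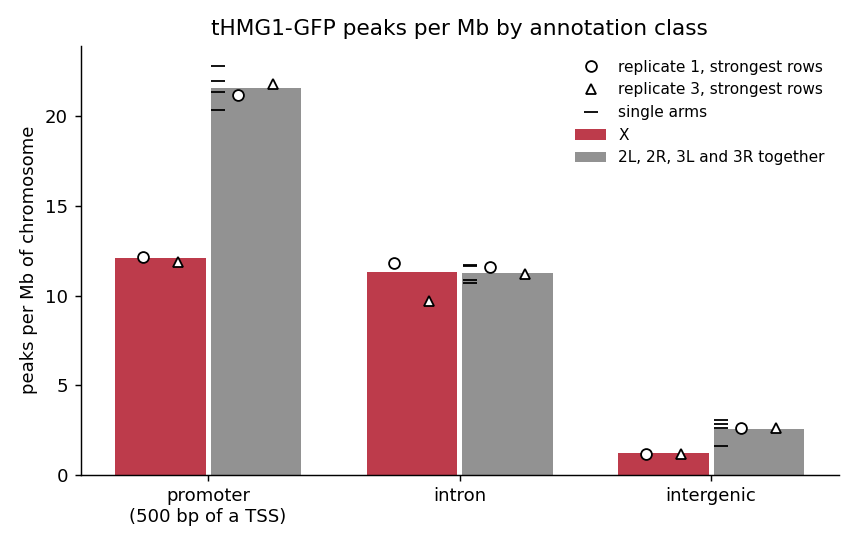
Peaks per Mb of chromosome (y axis) by annotation class (x axis) for X (red) and the 4 large autosome arms together (grey), with dashes for single arms in the IDR list and open symbols for equally many of the strongest rows of each replicate's own list. At promoters X stands at 12.1 against 21.6 per Mb, while in introns both stand near 11.3.

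Equally many of the strongest rows of each replicate's own list gave a like shortfall at promoters but not one value for introns. Replicate 1 gave ratios of 0.573 at promoters and 1.02 in introns. Replicate 3 gave 0.543 at promoters and 0.866 in introns, so the replicates differed more in introns than at promoters, and replicate 3 placed X introns below the lowest autosome arm (9.69 per Mb on X, against 10.4 to 11.9 per Mb on the arms).

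X also differs in how much sequence of each class it has. Promoter windows covered 12.6% of X, against 13.8% of the autosome arms, and introns outside them 43.3% of X, against 38.6% of the autosome arms. Per Mb of promoter window X had 96.0 peaks, against 156.7 on the autosome arms (147.2 to 165.0 on single arms), a ratio of 0.613. Per Mb of intron X had 26.1 peaks, against 29.2 on the autosome arms (27.2 to 31.9 on single arms), a ratio of 0.894, so on this scale X lay below every arm in introns too. Over all 30000 rows of the pooled list, intron rows were at 90.4 per Mb of X and 98.6 per Mb of the autosome arms (93.1 to 103.8 on single arms), a ratio of 0.917. Arm 3R has nearly the same share of intron (43.1%) as X, and its intron peaks were at 27.2 per Mb of intron. Intergenic sequence covered 22.6% of X and 28.4% of the autosome arms. Per Mb of it X had 5.27 peaks, against 8.96 on the autosome arms, a ratio of 0.588. On this scale X was close to the lowest arm, 2R, which had 5.51.

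Fewer X genes had a bound promoter. A gene is called bound if an IDR summit lies within 500 bp of any of its TSSs, which held for 21.4% of all protein-coding genes. On X, 307 of 2196 protein-coding genes were bound (13.98%, 12.6 to 15.5%), against 2679 of 11669 on the autosome arms (22.96%, 22.2 to 23.7%), where single arms ran from 21.2 to 24.4%. Replicate 1 gave 14.7% on X and 23.2% on the autosome arms, and replicate 3 gave 12.9% on X and 22.3% on the autosome arms. The gap was smaller once weaker rows were counted. In the pooled list of 30000 rows, which includes background, 1203 X genes had a promoter summit (54.8%, 52.7 to 56.9%), against 6554 genes on the autosome arms (56.2%, 55.3 to 57.1%). In the full list of replicate 1 the shares were 54.3% on X and 55.6% on the autosome arms, and in that of replicate 3 they were 49.4% on X and 54.9% on the autosome arms. The strongest promoter summit of such a gene had a median signal of 51.9 on X and 72.9 on the autosome arms. In replicate 1 these medians were 31.4 on X and 42.5 on the autosome arms, and in replicate 3 they were 26.0 on X and 34.3 on the autosome arms. For intron rows of the pooled list the medians were 31.2 on X and 32.8 on the autosome arms. These were taken over all intron rows, not over the strongest of each gene, so they are not comparable with the promoter medians.

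The shortfall of X promoters was largest among the strongest rows. X makes up 17.8% of the length of the 5 arms. Among rows ranked 1 to 500 of the pooled list, X held 23 of 349 promoter summits (6.59%, 4.22 to 9.73%) and 20 of 116 intron summits (17.2%, 10.9 to 25.4%). At ranks 501 to 1000 X held 14.5% of promoter summits, at 1001 to 2000 10.6%, and from there to the end of the IDR list at rank 4574 11.1%. Past the IDR list the X share of promoter summits was 14.4% up to rank 10000, 18.6% up to rank 20000 and 18.1% up to rank 30000. The X share of intron summits stayed between 14.1 and 18% over all these bins. In the strongest 500 rows of replicate 1, X held 8.56% of promoter summits and 19.2% of intron summits. In those of replicate 3 it held 7.10% of promoter summits and 14.0% of intron summits.

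**Figure D2:**
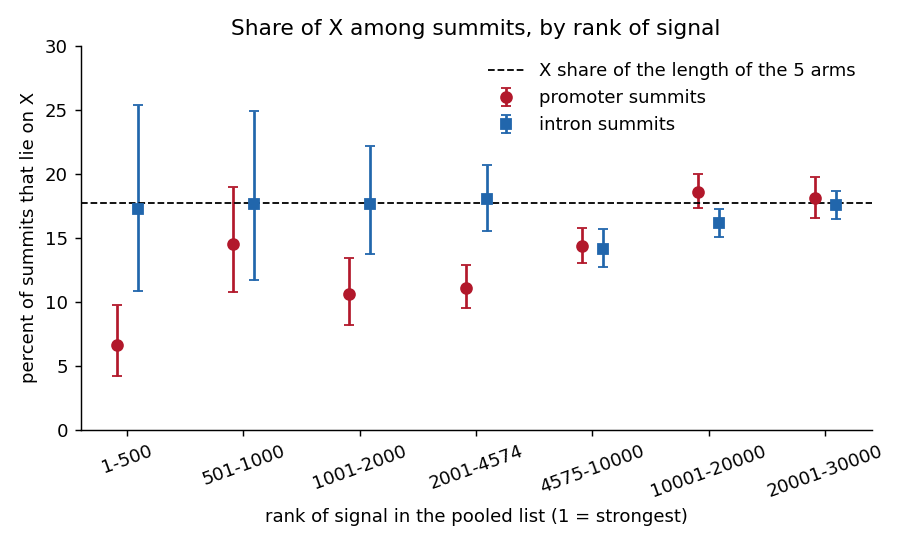
Percent of summits on X (y axis) among all summits on X and the 4 autosome arms, by rank of signal in the pooled list (x axis, strongest at the left), for promoter summits (red circles) and intron summits (blue squares). Bars are exact 95% intervals for the counting of peaks and the dashed line is the share of X in arm length, 17.8%. Promoter points lie below the line up to rank 10000 and the intron point of the first bin lies at 17.2%.

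Summits at X promoters also lay farther from the TSS. The median distance to the nearest TSS was 176 bp on X and 117 bp on the autosome arms. It was 165.5 bp on X and 116 bp on the autosome arms in replicate 1, and 179 bp on X and 118 bp on the autosome arms in replicate 3. Within 50 bp of the TSS lay 37 of 285 X summits (12.98%, 9.31 to 17.5%), against 503 of 2355 on the autosome arms (21.4%, 19.7 to 23.1%). Most summits were upstream of the TSS, 82.1% on X and 78.0% on the autosome arms. Promoters with TSSs on both strands within 500 bp were 27.4% of promoter peaks on X (22.3 to 32.9%) and 37.3% on the autosome arms (35.4 to 39.3%). Among these the median distance was 102.5 bp on X and 86 bp on the autosome arms. Among promoters with TSSs on 1 strand it was 204 bp on X and 160 bp on the autosome arms, so the larger distance on X was seen in both kinds.

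**Figure D3:**
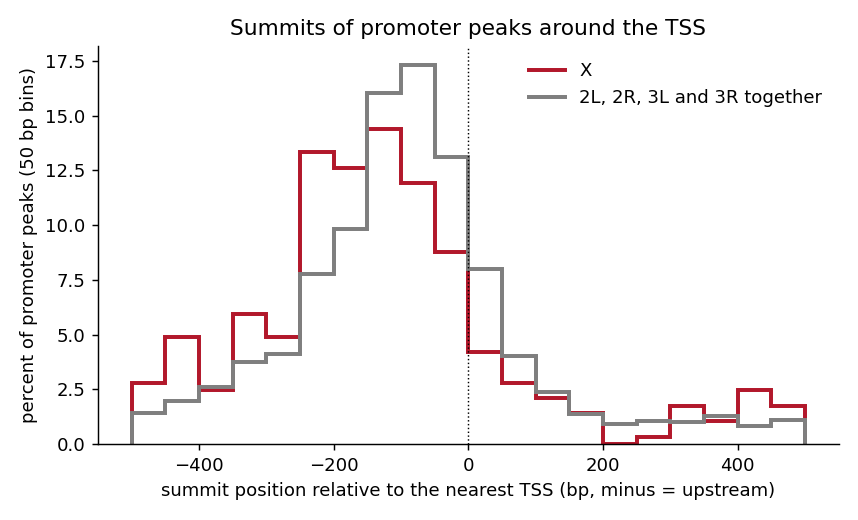
Position of promoter summits relative to the nearest TSS (x axis, bp, negative upstream), as a percent of all promoter peaks in bins of 50 bp (y axis), for X (red) and the 4 large autosome arms together (grey). The X curve is lower near the TSS, with 12.98% against 21.4% of summits within 50 bp, and its median distance is 176 bp against 117 bp.

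Median signal among the members of the IDR list differed little between X and autosomes. All of them lie above the same signal cut, so these medians cannot show how signal compares below it. Over the whole pooled list, the strongest promoter summit of a gene had a median of 51.9 on X and 72.9 on the autosome arms. Signal is the enrichment value of the authors' peak caller and is not scaled between lists. Over X peaks it ran from 90.4 to 2007 with a median of 143.5, against a median of 146.4 on the autosome arms. Promoter peaks had a median of 148.5 on X and 152.2 on the autosome arms, and intron peaks 135.4 on X and 137.7 on the autosome arms. A signal of 500 or more was reached by 20 X peaks (3.32%, 2.04 to 5.08%), against 213 on the autosome arms (5.38%, 4.70 to 6.13%). All X peaks share the same highest −log10 q value, so only the signal ranks them. The weakest members were at introns of bif (90.53) and Cdc7 (90.37) and at the promoter of HDAC6 (90.50), and the strongest X rows left out were an intron of vnd (90.21) and the promoters of Cdc7 (90.14) and CG44325 (89.98), so the list ends at no gap in signal.

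The IDR procedure compares ranks between replicates, and its list is a cut on the pooled signal. The values that follow thus describe the list and are no independent sign of agreement. Of the 602, 451 overlapped by at least 1 bp a row among the 4574 strongest of both replicates (74.9%, 71.3 to 78.3%), which compares with 76.6% of all IDR peaks and 77.0% on the autosome arms. A further 103 overlapped such a row of replicate 1 alone and 43 one of replicate 3 alone. Every one of the 121 strongest X peaks was among the strongest of both, but only 29.2% of the 120 weakest. For each X peak the strongest overlapping row of each replicate was taken. Replicate 1 values had a median of 88.4 on X and 90.2 on the autosome arms, and replicate 3 values a median of 62.5 on X and 66.9 on the autosome arms. Replicate 1 was higher at 520 of 600 X peaks that had both values, with a median ratio to replicate 3 of 1.49 on X and 1.41 on the autosome arms. Depth was not given in these lists, so this offset was not scaled away. Across the 600 peaks Spearman's rho was 0.703, given as a description since neighbouring peaks share the 2 libraries. Summits of the replicates lay a median of 30 bp apart.

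**Figure D4:**
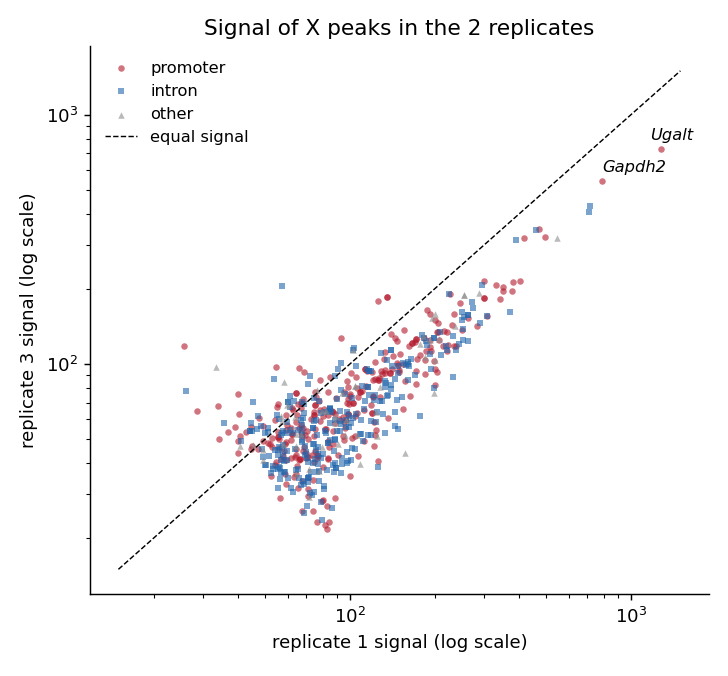
Signal of each X peak in replicate 1 (x axis) and replicate 3 (y axis), both on log scales, by annotation class (red circles promoter, blue squares intron, grey triangles other). The dashed line marks equal signal and 520 of 600 points lie on its replicate 1 side, with Ugalt and Gapdh2 at the upper right.

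The strongest X peak was at the promoter of Ugalt, which encodes a transporter of UDP-galactose into the Golgi. Its signal was 1281 in replicate 1 and 731.9 in replicate 3 and 2007 in the IDR list, the 4th highest of the genome, with the summit 25 bp upstream of the TSS. Gapdh2, a glycolytic enzyme, had 787.6 and 544.3 in replicates 1 and 3 and 1334 in the IDR list, 168 bp upstream. Hex-A, the hexokinase that opens glycolysis, had 417.0 and 319.3 in replicates 1 and 3 and 729.5 in the IDR list, 181 bp upstream. Both replicates placed Ugalt and Gapdh2 among their 25 strongest rows.

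Of the 12 strongest peaks 7 were at promoters and the rest in introns or an exon. An intron of CG32772 had 715.7 and 429.8 in replicates 1 and 3 and 1136 in the IDR list. An intron of Tlk, which encodes the Tousled-like kinase of chromatin assembly, had 708.6 and 406.1 in replicates 1 and 3 and 1110 in the IDR list. An intron summit of norpA, the phospholipase C of phototransduction, had 457.8 and 345.0 in replicates 1 and 3 and 797.1 in the IDR list. The strongest exon peak lay in lncRNA:Vinr, 545 bp from the TSS of lncRNA:CR44619, with 546.9 and 321.6 in replicates 1 and 3 and 903.8 in the IDR list. All of these introns and exons were strong in both libraries.

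Further promoters in the first 12 belong to bbx, which itself encodes an HMG-box protein, and to ph-p, a subunit of a Polycomb complex. bbx had 470.2 and 348.2 in replicates 1 and 3 and 818.9 in the IDR list. ph-p had 494.7 and 324.4 in replicates 1 and 3 and 809.1 in the IDR list, with its summit 455 bp inside the gene. ph-p has a tandem, near-identical copy, ph-d, so reads of this pair may be split between copies and its values are uncertain. The intergenic peak with the highest signal lay 821 bp upstream of ph-d (445.7). The promoters of MFS10 (612.6), a member of a transporter family, and Ptpmeg2 (597.1), a tyrosine phosphatase, complete the 12 with an intron of CHES-1-like (703.9).

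Peaks ran in clusters within some genes. In all, 482 X genes had a summit in the gene or within 500 bp of a TSS, of which 438 were protein-coding, and 50 had 3 or more. The 438 are 19.95% of coding X genes, against 26.87% of coding genes on the autosome arms. Overlapping genes share summits, so these counts are not of separate loci. Genes with 3 or more were not counted on the autosome arms. CHES-1-like, which encodes a forkhead transcription factor, held 11 peaks in 27.1 kb, 9 of them in introns, with signals from 100.1 to 703.9. Its strongest summit lay 801 bp from the TSS of the nested lncRNA:CR43287. Mnt, a partner of Max that opposes Myc, held 10 peaks in 29.9 kb, all in introns, with signals from 91.3 to 163.3, beside an X median of 143.5. A pair of these rows overlap and have the same replicate rows, so they are not 10 separate sites. Tlk held 9 peaks in 69.8 kb, 6 of them in introns, from 96.0 to 1110. CG1677 and the overlapping lncRNA:CR44357 shared 8. Raf, the kinase of the MAP kinase cascade, held 7 peaks, 6 of them in introns, and Smr, a corepressor, held 6, all in introns. A pair of the Raf rows also have the same replicate rows, so the replicates do not show 7 separate sites. On the scale of neighbours, 22.3% of distances between adjacent X summits were 2 kb or less, against 23.2% on the autosome arms, although the median distance was 10.5 kb on X and 7.62 kb on the autosome arms.

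Intron summits on X were not far from promoters. Their median distance to the nearest TSS was 2034 bp on X and 1928 bp on the autosome arms. Within 1000 bp of a TSS lay 67 of 266 (25.2%, 20.1 to 30.8%), against 24.8% on the autosome arms.

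Peaks were spread unevenly along X, as they were along the autosome arms. The first summit was at 487689 and the last at 22491132 of a chromosome of 23542271 bp. Complete 1-Mb bins held 2 to 49 peaks with a median of 26. On the autosome arms such bins held 0 to 81 peaks with a median of 39.5. The fullest bins were from 6 to 7 Mb with 49 peaks and from 13 to 14 Mb with 47. Relative to genes, the bin from 3 to 4 Mb, which holds Mnt, Tlk and dnc, stood highest, with 33 peaks for 55 coding TSSs, and 21 of these peaks were in introns. The bin from 22 to 23 Mb, near the centromere, had 2 peaks for 44 coding TSSs. The stretch with no summit that was longest, 930 kb from 21519419 to 22449446, holds 30 coding TSSs and 12 weaker rows of the pooled list. On the autosome arms the longest was 864.7 kb. The next on X, of 542 kb from 11921175 to 12463183, holds 35 coding TSSs, among them the calcium channel gene cac, and 46 weaker rows. A stretch of 467 kb from 9778734 to 10245677 holds 38 coding TSSs, among them the yolk protein genes Yp1 and Yp2, and 45 weaker rows.

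Every 2-Mb bin had a strong leading peak except the last. The leaders were elav from 0 to 2 Mb (548.9), Ugalt from 2 to 4 Mb, CG32772 from 4 to 6 Mb, CHES-1-like from 6 to 8 Mb, Hex-A from 8 to 10 Mb, an intron of CG1737 from 10 to 12 Mb (447.5), lncRNA:Vinr from 12 to 14 Mb, Gapdh2 from 14 to 16 Mb, an intron of the antiproliferative gene Tob from 16 to 18 Mb (534.7), an intron of Zw from 18 to 20 Mb (397.8) and bbx from 20 to 22 Mb. In the last bin the promoter shared by CG14615 and tilB led with 109.4. Zw encodes glucose-6-phosphate dehydrogenase, the entry enzyme of the pentose phosphate pathway.

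Cytoplasmic ribosomal protein genes of X were mostly bound. Of 14 X genes for cytoplasmic ribosomal proteins, 11 were bound (78.6%, 49.2 to 95.3%), against 50 of 77 on the autosome arms (64.9%, 53.2 to 75.5%) and 13.98% of all coding genes of X. Their signals were modest, with a median of 136.2 on X (102.6 to 270.8) and 259.5 on the autosome arms (94.4 to 822.9). RpS10b led with 139.8 and 131.7 in replicates 1 and 3, RpS5a followed with 122.7 and 101.4, and RpS28b had 106.4 and 79.8. Bound members had their summits within 59 bp of the TSS. RpS14a (109.8) and RpS14b (136.2) are neighbouring copies of nearly the same sequence, so their values are uncertain. RpS15Aa, RpL35 and RpS6 had no IDR summit in reach, though all 14 had a promoter summit in the pooled list, the weakest at 52.3. Of 11 X genes for mitochondrial ribosomal proteins none was bound (0%, up to 28.5%), an interval that holds the 13.98% of all coding X genes, against 32 of 62 on the autosome arms (51.6%, 38.6 to 64.5%). Weaker promoter rows of the pooled list were found for 8 of the 11, the highest at mRpL16 (68.3), mRpL3 (55.0) and mRpS25 (48.8).

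Dosage compensation genes had 1 bound member of 3, beside 13.98% of coding and 5.38% of non-coding RNA genes of X. The promoter of roX1 had 58.5 and 47.5 in replicates 1 and 3 and 107.9 in the IDR list, 68 bp from the TSS, which is below the X median. The nearest summits to roX2 and to mof, the histone H4 acetyltransferase of the complex, were 2311 bp and 2782 bp away. Of 10 genes of sex determination and germ line, 1 was bound at a promoter, near the 13.98% of all coding X genes. It was Sxl, the switch gene of female development, with 88.6 and 29.0 in replicates 1 and 3 and 121.0 in the IDR list. A further summit in Sxl reached 279.4.

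The remaining lists are read against all coding genes of X, of which 13.98% were bound at a promoter and 19.95% (438 of 2196) had a summit at a promoter or in the gene. A summit at a promoter or in the gene was found for 26.87% on the autosome arms and 25.7% of all coding genes. A count of summits in the gene depends on gene length, which was not taken into account. The counts for these lists are thus not read as more or fewer than the share of all coding X genes. Among 15 neural genes 3 were bound at a promoter and 7 had a summit at a promoter or in the gene. elav, which marks neurons and binds RNA, had 349.6 and 203.0 in replicates 1 and 3 and 548.9 in the IDR list. dnc, the cyclic AMP phosphodiesterase of memory, had 192.1 and 116.5 in replicates 1 and 3 and held 6 summits in all. per, a component of the circadian clock, had 102.0 and 50.4 in replicates 1 and 3. The ion channel genes para and cac had no summit, and Sh had only an intron summit of 148.4.

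Among 15 signalling and patterning genes 2 were bound at a promoter and 6 had a summit in reach or in the gene. These were sgg, the GSK3 kinase, with 227.4 and 190.6 in replicates 1 and 3, and csw, an SH2 domain phosphatase, with 142.6 and 107.3. Among 12 chromatin regulators 5 had a summit at a promoter or in the gene, Smr and fs(1)h (an intron summit of 133.9) among them, and 3 were bound at a promoter, namely ph-p, Top1, the topoisomerase I gene (121.1 and 74.7 in replicates 1 and 3), and HP1b, a heterochromatin protein 1 family member (83.3 and 41.5). Of 5 genes of DNA repair and meiosis only mei-41, the ATR kinase, was in reach (100.3 and 75.7), at a summit nearest to the TSS of TH1. Of 8 genes of eye colour and vesicle traffic, cm (164.2), car (153.7) and rb (94.3) were in reach of a summit, and w was not, with the nearest summit 8995 bp away. For cm and car the nearest TSS was that of a neighbour, sloth1 and Grip84.

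Sequence at X summits was poorer in G and C than the chromosome at large. The mean GC content of 200-bp summit windows was 36.6% on X and 37.5% on the autosome arms, against 42.5% over all windows of X and 42.2% over all windows of the autosome arms. Both strands were searched. GAGAGAGA was in 24 X windows (3.99%, 2.57 to 5.87%), against 2.98% of summit windows on the autosome arms, with 1.53% of all X windows and 1.04% of all windows of the autosome arms holding it. TATCGATA was in 16 X promoter windows (5.61%, 3.24 to 8.96%), against 5.14% of promoter windows on the autosome arms, with 0.703% of all X windows and 0.512% of all windows of the autosome arms. It was in 2 of 266 X intron windows. AAAAAAAA was in 19.1% of X summit windows and 12.6% of those on the autosome arms, and 15.8% of all X windows and 9.35% of all windows of the autosome arms hold it. CACACACA was in 4.82% of X summit windows and 5.13% of those on the autosome arms, against 5.78% of all X windows and 3.75% of all windows of the autosome arms. ATATATAT was in 5.81% of X summit windows and 4.39% of those on the autosome arms, against 4.81% of all X windows and 3.03% of all windows of the autosome arms. The shares of AAAAAAAA, ATATATAT and GAGAGAGA were thus higher on X at large as well as at its summits. At summits, though, the X intervals for GAGAGAGA and for ATATATAT (4.08 to 7.99%) hold the autosome shares.

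The words CACTGTG and CCACTGT, shown in capitals in the norpA, CHES-1-like and NFAT windows, were commoner at X summits. They overlap each other in part, and a window counts if it holds either on either strand. Of 602 X summit windows 98 held such a word (16.3%), against 323 of 3960 on the autosome arms (8.16%). Over all windows the shares were 4.05% on X and 3.74% on the autosome arms, so the words are hardly more frequent on X at large. Among promoter summits the share was 13.7% on X and 6.88% on the autosome arms, and among intron summits 18.8% on X and 10.0% on the autosome arms. Replicate lists gave 16.5% on X and 8.30% on the autosome arms in replicate 1, and 15.7% on X and 7.95% on the autosome arms in replicate 3. Since the words were picked from these same X windows, these shares are a description and carry no test.

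**Figure D5:**
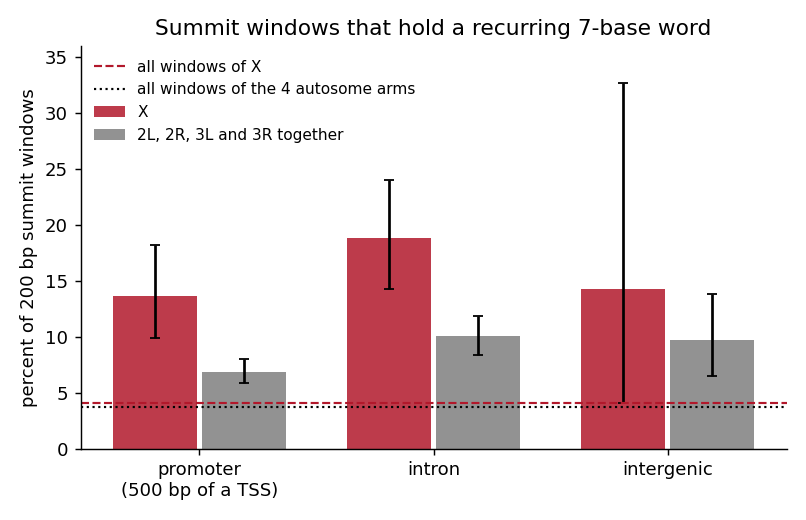
Percent of 200-bp summit windows that hold one of the words picked at X summits (y axis) by annotation class (x axis), for X (red) and the 4 large autosome arms together (grey), with exact 95% intervals for the counting of peaks. Lines give the share among all windows of X (dashed, 4.05%) and of the autosome arms (dotted). Intron windows stand at 18.8% on X and 10.0% on the autosome arms.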

How the data were processed

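Peak lists for builds dm6 and dm3 were used as deposited, with 1 list per replicate, 1 of pooled replicates and 1 past the IDR procedure. Each row holds a signal, which is the enrichment value the authors deposited, and a −log10 q value the authors deposited. For the aligner, peak caller, IDR threshold and depth, nothing is stated by the labels or the file headers. A control experiment named in the labels was not used here. The labels call the 2 samples biological replicates, and they were not averaged.

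The dm6 X rows of the IDR list were taken as members. All 4574 IDR rows are also in the pooled list of 30000 rows, so they were called on pooled replicates. Classes and genes came from Ensembl release 115 without transposable elements (18277 genes), and sequence from RefSeq's release 6 assembly. No test was run, since the design has 1 group. The code was tested on simulated positions. Members, lists, motifs and the rule for named genes were chosen with earlier results of these data known. Named were genes at the 12 strongest peaks, leaders of 2-Mb bins and of each class, genes with most peaks, and up to 4 bound members per list. Other names were chosen after their values were seen. Python 3.11.15, numpy 2.4.6, pandas 2.3.3, scipy 1.17.1 and matplotlib 3.10.9 were used.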

Additional observations from a re-analysis of the deposited data

How the results depend on the processing

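Alternatives gave 61 values for 10 results, and only the intron density ratio, which is 1.00, came out on both sides of 1. Of the 10, the ratios of promoter and of intron density were added after seeing the data. Without either replicate, the density ratio of X to autosome arms was 0.649 to 0.718, the promoter density ratio 0.543 to 0.573, the intron density ratio 0.866 to 1.02, the ratio of median signal 0.973 to 0.981, the promoter to other signal ratio on X 1.059 to 1.06, and the 3 class shares and the share of bound genes stayed within their intervals. Per 1000 coding genes in place of per Mb, the density ratio was 0.808. With a promoter window of 250 bp, 33.9% of X peaks were promoter, 51.3% intron and 8.97% intergenic, 10.6% of genes were bound, and the promoter density ratio was 0.496 and the signal ratio 1.05. With 1000 bp these were 61.8% promoter, 33.1% intron, 16.6% bound, 0.622 and 1.09. With 1 TSS per gene they were 34.55% promoter, 55.15% intron, 11.2% bound, 0.4995 and 1.05. The intron density ratio lay between 0.972 and 0.999 under these windows and in the stronger 50% of peaks. In that stronger set, 98.97% overlapped both replicates, 7.61% of genes were bound and the signal ratio of X to autosome arms was 0.971. Merged intervals gave a promoter to other signal ratio of 1.08. The dm3 list gave a signal ratio of 0.973, and its density was not run because dm3 arm lengths were not used here. Overlap of at least 50% of a peak left 69.4% in both replicates, and all rows of each list gave 99.7%. Shifts of shares with the window, the number of peaks or the overlap rule follow from those rules, and the cause of the others was not tested. Depth is unknown, so weak peaks near the end of the list cannot be given a counting error.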

Other observations

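X peaks with the words CACTGTG or CCACTGT in their window had a median signal of 183.8, against 136.0 for those without. On the autosome arms the medians were 159.5 with and 145.5 without a word. In 5 groups of 120 or 121 X peaks, from the strongest to the weakest, 26.4%, 18.2%, 17.5%, 10.0% and 9.17% of windows held a word. The share in such groups was not taken on the autosome arms, so this order cannot be called particular to X. The matches were not centred on the summit: 56 of 158 on X lay within 50 bp of it, at a median distance of 66 bp, against 200 of 468 and a median of 57.5 bp on the autosome arms. None of the X matches lay wholly in repeat-masked sequence. X rows of the pooled list outside the IDR list held a word in 7.46% of windows, against 5.64% of such rows on the autosome arms. Words and values come from the same peaks, and whether any factor binds there was not tested.

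From the strongest to the weakest of those 5 groups of X peaks, the promoter share was 54.5%, 48.8%, 43.3%, 43.3% and 46.7%, which is no steady order. Of the 121 strongest X peaks 54.5% were at promoters and 35.5% in introns, against 68.3% at promoters and 24.2% in introns for the 792 strongest on the autosome arms. Of the 120 weakest X peaks 46.7% were at promoters and 45.8% in introns, against 54.2% at promoters and 34.6% in introns for the 792 weakest on the autosome arms.

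The ratio of replicate 1 to replicate 3 signal ran from 0.219 to 3.79 over X peaks and from 0.156 to 15.6 on the autosome arms. At the upper end, the promoters of LPCAT, sw, which encodes a dynein intermediate chain, and ND-24, a subunit of respiratory complex I, had replicate 1 to replicate 3 ratios of 3.61, 3.62 and 3.79. An internal promoter of Tlk (25.8 in replicate 1 and 117.6 in replicate 3), an intron of pdgy (57.5 in replicate 1 and 204.7 in replicate 3) and an intron of Syx4 (26.0 in replicate 1 and 77.9 in replicate 3) lay at the lower end, at 0.219, 0.281 and 0.334. The cause was not tested.

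Of 483 X genes annotated as non-coding RNA, 26 were in reach of a summit (5.38%), against 191 of 2748 on the autosome arms (6.95%) and 13.98% of coding X genes. Some of these 26 are several entries of the same locus, such as mir-4962 in Tlk and a pair of entries that lie inside it.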
